A study of Mus musculus with 2 samples.

Results

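The long noncoding RNA genes Malat1, Neat1, Miat, Rmst, Sox2ot, Pantr1, Tug1, Tunar and Pvt1, known from the nucleus or the nervous system, were looked up by name in the gene and transcript tables, and 8 of the 9 were found among 43346 mouse genes. The tables came from total RNA of mouse neural tube at embryonic day 13.5, in 2 biological replicates of 1 group, replicate 1 and replicate 2. Both libraries were from strain B6NCrl, with embryos of both sexes pooled, and each was made from 10 ng of RNA longer than 200 bases with spike-in RNA added. Since all samples belong to a single group, there is no treated, mutant or later group to compare with, and each comparison set replicate 1 against replicate 2 or one RNA against another.

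Long noncoding RNAs are transcribed and spliced much like mRNAs but mostly encode no protein, and several of the best known stay in the nucleus. Malat1 gathers in nuclear speckles, where splicing factors are stored, while Neat1 is the scaffold on which paraspeckles assemble. Miat, Rmst, Pantr1 and Tunar are known from neural progenitors and neurons, Tug1 is broadly transcribed, and Pvt1 lies beside the growth regulator Myc.

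Of the 9 RNAs, 7 were matched by gene identifier. Rmst was matched to the older record ENSMUSG00000097348.4, which shares a transcript identifier and 13 of 13 transcript lengths with the present Rmst annotation, against 2 for the next best record. Sox2ot, the noncoding transcript that runs over the Sox2 gene, was not matched and was not analysed here. Tunar carries the protein-coding biotype in the annotation used, and its locus is known to encode a small protein.

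The sequences shown first are the stretches on which the transcript results below turn, copied from the GENCODE M21 transcripts of mm10, 5′ to 3′. The spliced Malat1 transcript is shown because it took most Malat1 reads. Lower case is the last part of its first exon and capitals are its second exon, bases 375 to 485 of a transcript of 485 bases.
Malat1-203: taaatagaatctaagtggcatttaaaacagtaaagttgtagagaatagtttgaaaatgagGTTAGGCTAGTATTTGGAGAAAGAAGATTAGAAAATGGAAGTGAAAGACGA

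Malat1 and the long Neat1 RNA are known to end not in a poly(A) tail but at a cut made by RNase P, with U-rich stretches folding onto an A-rich end. The last 11 bases of the long Neat1 RNA (in capitals) were therefore searched for in the full-length Malat1 RNA, and both stretches are shown with the 79 bases before them.
Malat1-201: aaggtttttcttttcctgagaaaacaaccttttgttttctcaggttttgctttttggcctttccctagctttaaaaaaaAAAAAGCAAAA
Neat1-201: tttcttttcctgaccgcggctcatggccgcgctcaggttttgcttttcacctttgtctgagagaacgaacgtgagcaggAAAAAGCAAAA
In Malat1-201 these letters began at base 6681 of 6983, which leaves 292 bases up to the annotated end. In Neat1-201 they are bases 20761 to 20771, by construction the end of the transcript. The same letters occurred in 618 of 141767 annotated transcripts (0.436%), on the transcript strand.

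Miat is known for copies of UACUAAC, the letters of the yeast branch point, to which the splicing factor Sf1 binds. These are shown in capitals, as T for U, in the 2 stretches of Miat-201 that hold all 6 copies, bases 4528 to 4679 and 5156 to 5256.
Miat-201, first stretch: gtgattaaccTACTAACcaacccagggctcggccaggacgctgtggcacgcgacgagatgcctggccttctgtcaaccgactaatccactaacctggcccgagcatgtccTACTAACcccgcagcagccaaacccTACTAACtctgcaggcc
Miat-201, second stretch: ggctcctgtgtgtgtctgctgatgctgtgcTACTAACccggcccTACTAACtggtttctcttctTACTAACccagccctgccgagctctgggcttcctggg
The copies began at bases 4538, 4638, 4663, 5186, 5200 and 5220. Among 937 annotated transcripts of 8000 to 10000 bases, 188 (20.1%) held the letters at all on the transcript strand and 2 (0.213%) held 6 or more, Miat-201 and Miat-205. Of the other RNAs analysed, only Neat1-201 held a copy, a single one.

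All 8 RNAs reached 1 TPM, the detection level used here, in each library, and their levels spanned more than 3 orders of magnitude. TPM is the authors' measure of transcript abundance, scaled for transcript length to a fixed sum over each library, so it allows levels of different genes to be set side by side. At the same level, 825 of 5696 long noncoding genes (14.5%) and 15023 of all 43346 mouse genes (34.7%) were detected. The median of mean TPM was 60.7 over the 8 RNAs and 0.05 over the long noncoding genes. The 8 were listed because they are well known, so this difference in medians describes the list.

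Malat1 (ENSMUSG00000092341.2, mm10 chromosome 19, 5795690 to 5802672, minus strand) stood at 6762 TPM in replicate 1 and 6722 TPM in replicate 2, a mean of 6742 ± 28.5 TPM (SD, n = 2). By this measure it was first among the long noncoding genes and 7th among all mouse genes. The level rested on 63911 estimated reads (expected counts) in replicate 1 and 40662 in replicate 2, which made up 72.3% and 71.8% of the counts of the 8 RNAs and 0.199% and 0.193% of all gene counts. By counts alone, with no scaling for length, it was the third among the long noncoding genes.

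Tug1, a broadly transcribed RNA needed in the developing retina and male germ line of the mouse (ENSMUSG00000056579.13, chromosome 11, 3639785 to 3649673, minus strand), had 127 TPM in replicate 1 and 131 TPM in replicate 2, from 14916 and 9776 counts. Pantr1, transcribed away from the neural transcription factor gene Pou3f3 (ENSMUSG00000060424.10, chromosome 1, 42590782 to 42694842, minus strand), had 118 and 117 TPM from 1228 and 767 counts. They were the closest pair in the list, yet both Tug1 values lay above both Pantr1 values, the nearest pair of values differing 1.08-fold. They ranked 14th and 15th among the long noncoding genes by TPM and 5th and 42nd by counts.

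Rmst, which binds Sox2 and takes part in neurogenesis in human cells (chromosome 10, 92071037 to 92165170, minus strand), had 77.0 TPM in replicate 1 and 83.4 TPM in replicate 2, from 2041 and 1334 counts. Miat, a nuclear RNA of neurons (ENSMUSG00000097767.4, chromosome 5, 112213228 to 112229395, minus strand), had 41.9 and 40.4 TPM from 5408 and 3548 counts. Miat thus had more counts than Rmst in both libraries while its TPM was lower in both. Rmst was the 23rd and Miat the 46th long noncoding gene by TPM.

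The other 3 RNAs were below 8 TPM. Tunar, known from neural differentiation of mouse embryonic stem cells (ENSMUSG00000097929.3, chromosome 12, 105333870 to 105383932, plus strand), had 7.49 TPM in replicate 1 and 7.58 TPM in replicate 2, from 532 and 346 counts. Pvt1 (ENSMUSG00000097039.4, chromosome 15, 62037986 to 62378096, plus strand) had 3.19 and 3.75 TPM, from 96.0 and 65 counts. Neat1 (ENSMUSG00000092274.2, chromosome 19, 5824708 to 5845478, minus strand) was the lowest at 2.04 and 2.17 TPM, from 241 and 147 counts. Neat1 ranked 571st among the long noncoding genes, and it lies beside Malat1 on the same strand.

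The order by TPM was therefore Malat1, Tug1, Pantr1, Rmst, Miat, Tunar, Pvt1 and Neat1, and in all 7 neighbouring pairs both values of the higher RNA lay above both values of the lower one. With 2 values each, an exact permutation test between neighbours cannot pass 0.05, its smallest two-sided p being 0.333. In bulk tissue, a low level from few cells of a type cannot be told apart from little RNA per cell.

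**Figure D1:**
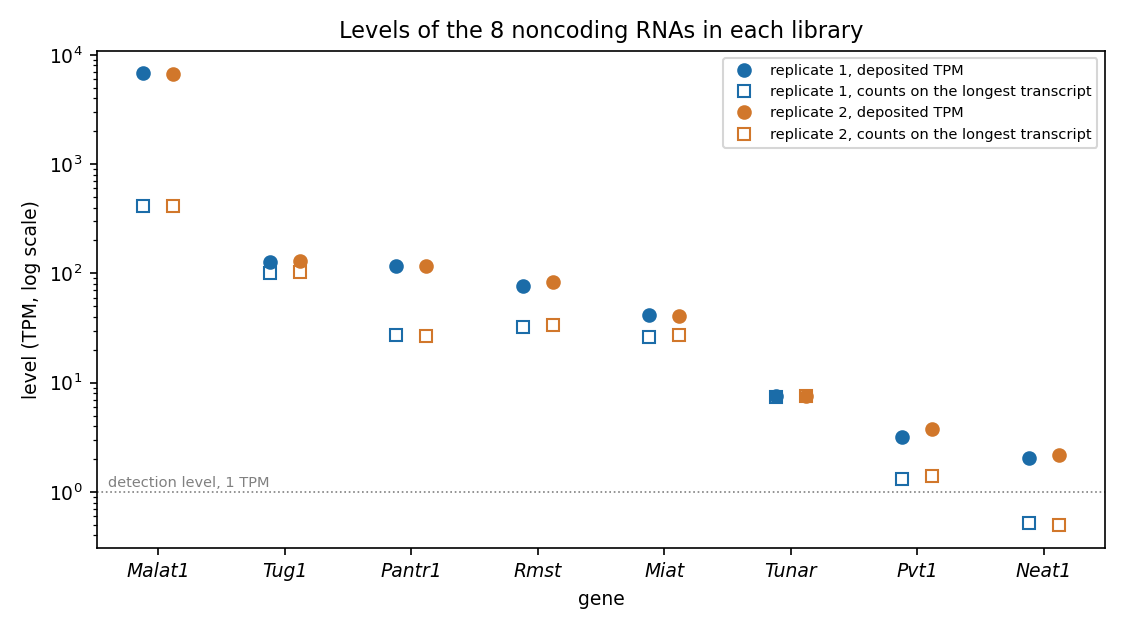
Level of each RNA in replicate 1 (blue) and replicate 2 (orange) on a log axis in TPM. Filled circles are the deposited TPM, from 6762 and 6722 for Malat1 down to 2.04 and 2.17 for Neat1, and open squares are the levels with all counts of a gene placed on its longest transcript, where Malat1 falls to 411 and 412 and Neat1 lies below the dotted line at 1 TPM.

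The order depended on the transcript to which reads were assigned. When all counts of a gene were divided by the effective length of its longest annotated transcript, an alternative chosen after seeing the data, Malat1 came to 411 TPM in replicate 1 and 412 in replicate 2, 16.4-fold below the deposited mean. Of 15023 genes detected, 3 had a ratio as large as that of Malat1, and of the 825 long noncoding genes only Malat1 did, while the median ratio over all detected genes was 1.07. Pantr1 came to 27.3 and 26.9 TPM, 4.32-fold below its deposited mean, and Neat1 to 0.515 and 0.496 TPM, under the detection level. On this scale Rmst, at 32.3 and 33.3 TPM, lay above Pantr1, and Miat, at 26.4 and 27.3 TPM, overlapped with Pantr1. The other pairs of neighbours kept their order, with Tug1 at 99.8 and 103 TPM, Tunar at 7.39 and 7.58 TPM and Pvt1 at 1.32 and 1.41 TPM.

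Almost all of the Malat1 level came from 1 short transcript. Malat1-203 is a spliced transcript of 485 bases at the 5′ end of the gene, with exons of 434 and 51 bases (5802238 to 5802671 and 5801916 to 5801966) around an intron of 271 bases. It was assigned 58724 counts in replicate 1 and 36978 in replicate 2, which gave 99.5% and 99.4% of the Malat1 TPM. The full-length, single-exon Malat1-201 of 6983 bases was assigned 5175 and 3684 counts, or 33.2 and 37.3 TPM. Counts per kilobase of effective length were 202-fold higher on Malat1-203 than on Malat1-201 in replicate 1 and 179-fold in replicate 2. Both exons of Malat1-203 are also part of Malat1-201, so reads within an exon match both transcripts, and only reads across the exon junction printed above match Malat1-203 alone. Reads in the intron, across the exon edges or in the rest of the gene match Malat1-201 alone of these 2. The intron also lies within a further record, described next. The posterior SD of the deposited counts, the authors' measure of doubt in the assignment, was 39 and 31.7 counts for Malat1-203.

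A further record lies over the same stretch. Gm37376, annotated as an unverified single-exon transcript of 453 bases on the opposite strand (5801941 to 5802393), had 20162 counts in replicate 1 and 14517 in replicate 2, or 2519 and 2861 TPM. Together Malat1 and Gm37376 held 84073 counts in replicate 1 and 55179 in replicate 2, of which Gm37376 had 24.0% and 26.3%. Gm37376 covers the whole intron of the spliced Malat1 transcript. Strand handling is not given in the sources used here, so reads of Malat1 and Gm37376 cannot be told apart. Intron reads that match the full-length Malat1 RNA may thus have been counted for Gm37376. The share of the spliced transcript and its ratio to the full-length RNA rest on the deposited assignment. How they would change without the Gm37376 record was not tested. The nested record Gm27694 had no counts. Frmd8, the nearest protein-coding gene at higher coordinates for both Malat1 and Neat1, had 15.4 TPM in replicate 1 and 17.2 in replicate 2.

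**Figure D2:**
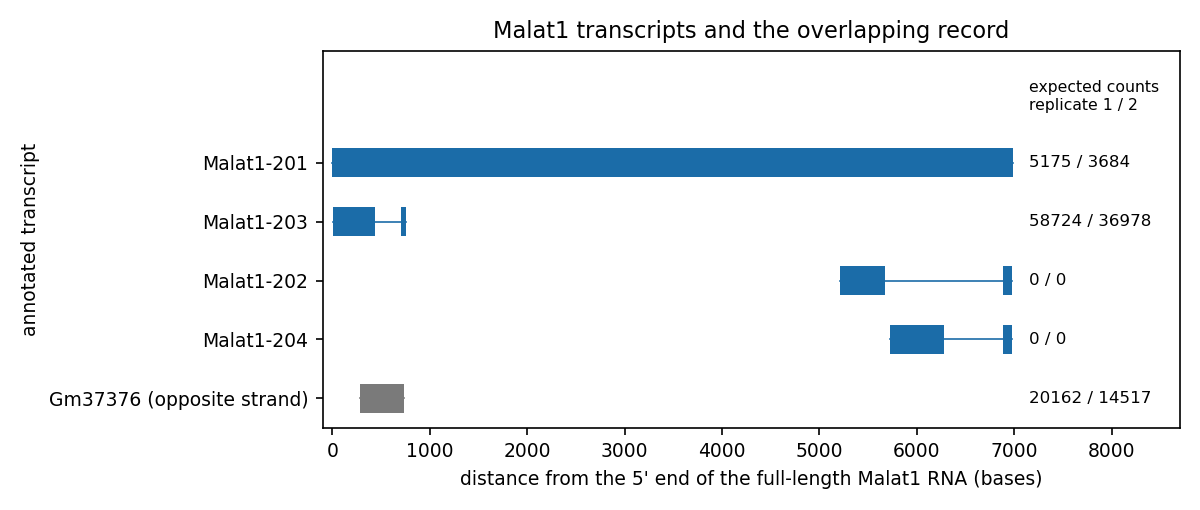
Exons (boxes) and introns (lines) of 4 annotated Malat1 transcripts and of Gm37376, by distance in bases from the 5′ end of the full-length RNA, with the expected counts of replicate 1 and replicate 2 at the right. The deposited Malat1 transcript without a match in the annotation used, which had few or no counts, is not drawn. The 58724 and 36978 counts of Malat1-203 and the 20162 and 14517 counts of Gm37376 lie within the first part of the gene.

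Neat1 has a short and a long form, which begin at about the same place, and the long form is the one known to be needed for paraspeckles. Neat1-202, of 3004 bases, took 116 counts in replicate 1 and 81.2 in replicate 2, against 124 and 65.7 for Neat1-201, of 20771 bases. The counts were thus about evenly divided, with the long form ahead in replicate 1 and the short form ahead in replicate 2. Neat1-202 lies within the span of the single-exon Neat1-201, so reads within its exons match both forms. The division of such reads, and the shares and ratios that follow, rest on the deposited assignment. Scaled for length, Neat1-202 made up 86.9% and 89.8% of the Neat1 TPM and Neat1-201 13.1% and 10.2%. In TPM the short form was 6.56-fold above the long form in replicate 1 and 8.86-fold in replicate 2. The posterior SD was 5.65 and 4.11 counts for the short form.

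Most Miat reads went to the transcripts that carry the UACUAAC copies. Miat-201, of 8758 bases, was assigned 4935 counts in replicate 1 and 3364 in replicate 2, and Miat-205, of 9163 bases, 394 and 144. Together they held 98.5% and 98.9% of Miat counts but 64.7% and 69.8% of its TPM. The difference went to short transcripts, above all Miat-204 of 284 bases, which had 20.4% and 19.5% of the TPM from 35.8 and 20.9 counts. Gm26953, on the opposite strand of Miat, had no counts. The nearest protein-coding gene at higher coordinates, the lens crystallin gene Cryba4, had 2.99 and 2.59 TPM.

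The leading Rmst transcript differed between TPM and counts. Except for 1 transcript with a shared identifier, names, positions and exon counts of Rmst transcripts were taken from present entries of equal length. By TPM it was Rmst-206, of 309 bases at the 3′ end of the gene, with 38.1% in replicate 1 and 40.3% in replicate 2 from 139 and 101 counts. By counts it was Rmst-207, of 2698 bases and 2 exons at the 5′ end, with 1088 and 690 counts, or 53.3% and 51.7% of Rmst counts. The 10-exon Rmst-210, of 2891 bases, followed with 362 and 274 counts. All 13 transcripts had counts in at least 1 library.

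Small records inside Rmst were also counted, all on its strand unless stated. Gm27544 had 31.6 TPM in replicate 1 and 23.7 TPM in replicate 2, Gm27582 had 15.0 and 12.2 TPM, Gm27419 7.86 and 5.28 TPM, and Gm27608 1.17 and 3.75 TPM, each from 40 counts or fewer. The opposite-strand record Gm26700, which lies over the 5′ end and Rmst-207, had 8.05 and 4.30 TPM from 338 and 115 counts. The microRNA records Mir135a-2 and Mir1251, hosted by Rmst, had no counts in these libraries of RNA over 200 bases. The nearest protein-coding genes were far away, the nuclear lamina gene Tmpo at 69.5 and 85.4 TPM and the centrosome gene Nedd1 at 16.0 and 18.6 TPM.

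Tug1 was led by Tug1-203, of 5112 bases, with 67.4% of its TPM in replicate 1 and 63.5% in replicate 2, followed by Tug1-201 with 19.3% and 21.3%. Its 3 main transcripts are all several kilobases long, and by counts the share of Tug1-203 was close to that by TPM, 65.0% and 61.1%. Records on the Tug1 strand within it included Gm27624 at 28.6 and 47.6 TPM and Gm27640 at 70.0 and 65.5 TPM, each from fewer than 80 counts. Morc2a, a gene for a chromatin protein, overlaps the 5′ end of Tug1 on the opposite strand and had 31.1 and 33.7 TPM. Reads from that overlap cannot be told apart. Of the Tug1 transcripts counted here, only Tug1-205 reaches it, with 0.709% of Tug1 counts in replicate 1 and 0.802% in replicate 2. The next protein-coding genes were Smtn at 15.7 and 17.6 TPM and Osbp2 at 9.23 and 12.8 TPM.

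Pantr1 reads could not be divided firmly between its transcripts. Pantr1-212 led in replicate 1 with 47.9% of the TPM and had 26.1% in replicate 2, while Pantr1-209 had 18.2% in replicate 1 and led in replicate 2 with 35.4%. The posterior SD was 47.7 and 37.0 counts for Pantr1-212, against 511 and 174 counts assigned, and 55.9 and 41.2 counts for Pantr1-209, against 250 and 305. For the gene as a whole it was 0 in both libraries. The 8 transcripts that end within 9 bases of each other held 94.2% and 90.4% of the TPM, so the 3′ end was shared where the exon structure was not. Pou3f3, which starts 926 bases from Pantr1 on the opposite strand, had 7.86 and 9.26 TPM, below Pantr1 in both libraries.

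Tunar-201, of 3282 bases, held 90.2% of the Tunar TPM in replicate 1 and 100% in replicate 2, and the other transcript, Tunar-202, had 46.3 counts in replicate 1 and none in replicate 2. The posterior SD of that division was 33.1 and 16.5 counts. The nearest protein-coding gene at higher coordinates, D430019H16Rik, had 8.84 and 8.02 TPM. Pvt1 was spread over all 10 of its transcripts, and none held more than 25.8% of the TPM in either library. Its leading transcript was Pvt1-207 in replicate 1, with 37.5 counts, and Pvt1-204 in replicate 2, with 8.54 counts, and the posterior SD passed 10% of the count for all 10. Myc, which lies 47612 bases before the start of Pvt1 on the same strand, had 45.3 and 44.6 TPM, above Pvt1 in both libraries.

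**Figure D3:**
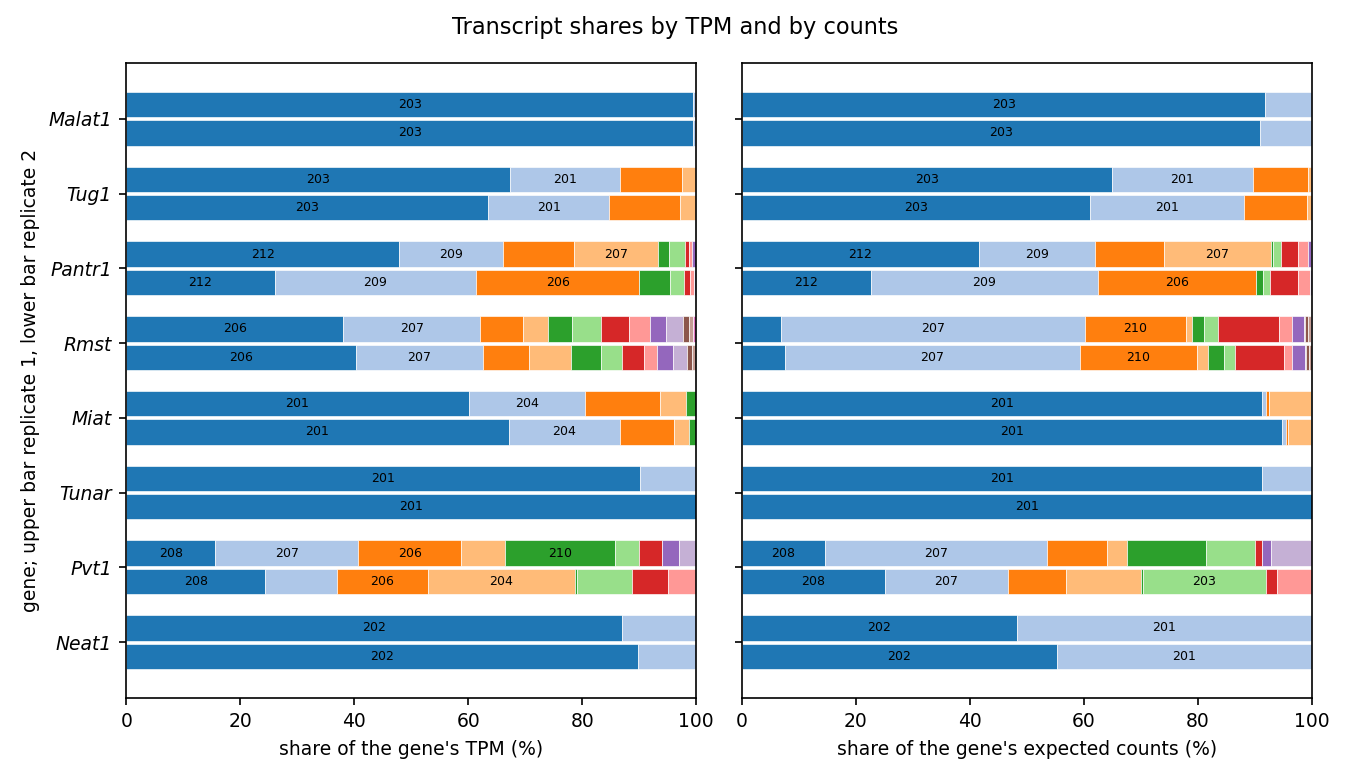
Share of each annotated transcript in the TPM (left) and in the expected counts (right) of its gene, in percent, with replicate 1 as the upper bar and replicate 2 as the lower bar. Numbers name transcripts with at least 14% (203 stands for Malat1-203 in the Malat1 bars). Short transcripts such as Rmst-206 and Miat-204 are wide at the left and narrow at the right, and the Pantr1 bars differ between libraries.

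Within the Sox2ot locus, Sox2, the neural progenitor transcription factor on the same strand, had 14.8 TPM in replicate 1 and 14.3 in replicate 2. The small records Gm27403, at 4.61 and 3.03 TPM, and RF01953, at 8.44 and 5.65 TPM, lie there too. The flanking genes Dnajc19 and Atp11b had 68.4 and 62.4 TPM and 14.3 and 14.8 TPM.

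The levels of the 8 RNAs hardly differed between the libraries. Log2 ratios of replicate 1 over replicate 2, after scaling to library size, ran from -0.03 for Pvt1 to 0.12 for Neat1. None of the 8 RNAs was called (exact binomial test, Benjamini-Hochberg adjusted p under 0.05 and at least 2-fold), beside 390 of 17428 genes tested (2.24%). At that share, none of any 8 genes would usually be called. Of the genes tested, 138 (0.792%) were called higher and 252 (1.45%) lower in replicate 1. The test takes in counting noise alone, so it compares these libraries and not conditions. The labels call the replicates biological, and the common coefficient of variation between them was 9.23% (edgeR, 1 degree of freedom).

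At any fold, 1 of the 8 passed an adjusted p of 0.05, beside 24.4% of genes tested. This was Malat1, with 1988 CPM (scaled by the total of gene counts) in replicate 1 and 1929 CPM in replicate 2 and a log2 ratio of 0.06 ± 0.01 (counting SE, adjusted p = 2.21e-09). That difference of 1.04-fold was smaller than the common coefficient of variation. With edgeR's exact test, which takes that variation in, the adjusted p of all 8 RNAs was 1, and 215 of 17428 genes passed 0.05. The variation was estimated from the same 2 libraries, so a difference of usual size could hardly pass, and no conclusion is drawn from this test. The direction of Malat1 turned when libraries were scaled by spike-in counts, to a log2 ratio of -0.03 (exact binomial test, adjusted p = 0.00194). The log2 ratio was 0.02 ± 0.02 for Tug1, 0.09 ± 0.07 for Pantr1, 0.02 ± 0.05 for Rmst, 0.02 ± 0.03 for Miat and 0.03 ± 0.10 for Tunar. For the least counted RNAs it was -0.03 ± 0.23 for Pvt1 and 0.12 ± 0.15 for Neat1. These errors are 1 counting SE, and a change had to be well above them to pass an adjusted p of 0.05. To be called it had to be at least 2-fold as well. The median over all genes tested was 0.01, with the 5th and 95th percentiles at -0.59 and 0.54, and the median over 1340 long noncoding genes tested was 0.08.

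**Figure D4:**
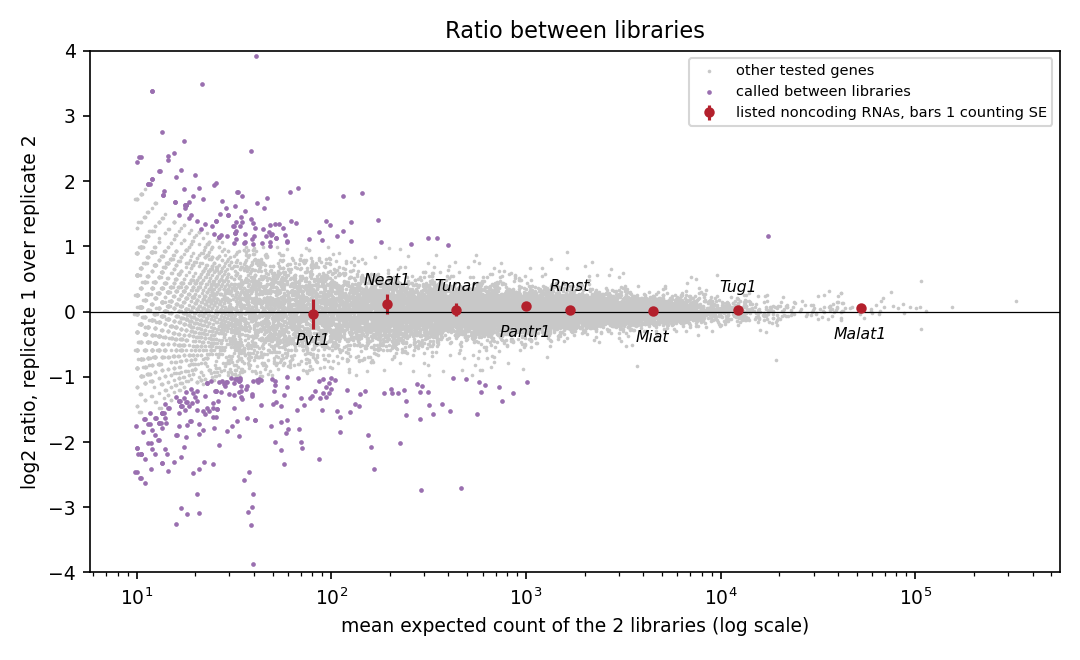
Log2 ratio of replicate 1 over replicate 2 against the mean expected count on a log axis. The 8 RNAs are in red with bars of 1 counting SE, genes called between libraries in purple and other tested genes in grey, and 22 genes lie beyond the axis. All 8 RNAs sit between -0.03 and 0.12.

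Genes for most of the proteins known to work with these RNAs were detected, and the counts over the lists that follow are a description. All 14 paraspeckle protein genes were above 1 TPM (median 126 TPM). They were led by Hnrnpk at 1187 TPM in replicate 1 and 1337 TPM in replicate 2 and Matr3 at 535 and 564 TPM. Taf15 was lowest at 8.14 and 9.02 TPM, which is still above Neat1. All 14 nuclear speckle genes were above that level too (median 242 TPM), from Srsf3 at 540 and 609 TPM and Srsf2 at 471 and 496 TPM down to Pnn at 59.8 and 62.5 TPM. None of these 28 genes was called between libraries, beside 2.24% of all genes tested, a share at which few or none of 28 would be called.

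Of the 4 genes listed for proteins that bind Miat, 3 were found and all 3 were detected. The splicing factor Srsf1 had 209 TPM in replicate 1 and 268 TPM in replicate 2, Sf1, which reads UACUAAC, 80.2 and 90.5 TPM, and Celf3 34.6 and 37.9 TPM. Of 6 partners of Rmst and Sox2ot, 5 were detected, from Hnrnpa2b1 at 646 and 693 TPM and Sox2 down to Sox3 at 0.54 and 0.43 TPM. None of the 4 genes with a noncoding partner in cis, Myc, Morc2a, Sox2 and Pou3f3, was called, and their median log2 ratio was -0.02. With 2.24% of all genes tested called, none of any 4 genes would usually be called.

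Among other named noncoding RNAs, 28 of 34 were found and 21 detected, led by Gm26917 at 1630 TPM in replicate 1 and 2058 TPM in replicate 2 and by the imprinted Meg3 at 1378 and 1292 TPM. The lowest was Nkx2-2os at 0 and 0.05 TPM, with an uncertain assignment of reads. Of 23 tested, 1 was called, Dlx6os1, a transcript of the forebrain interneuron gene pair Dlx5 and Dlx6, with 0 counts in replicate 1 and 27 in replicate 2, beside 41 called of 1340 long noncoding genes tested. The 10 genes of highest mean TPM with a long noncoding biotype were Malat1, Gm42418, Gm26917, Meg3, Gas5, Cct6a, Gm3764, Gm17750, Gm12940 and Rian, from 6742 ± 28.5 TPM for Malat1 down to 163 ± 16.9 TPM for Rian (SD, n = 2). Cct6a, a gene known for a chaperonin subunit, stands among them through the processed-transcript biotype it has in the annotation used. By deposited TPM, Malat1 was 2.03-fold above the next, Gm42418. With all counts on the longest transcript it was the third, at a mean of 411 TPM, below Gm42418 at 3318 TPM and Gm26917 at 1844 TPM. The coefficient of variation of TPM over both libraries was lowest for Malat1, at 0.423%, and ran up to 11.4% for Pvt1 among the 8 RNAs.

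Replicate 1 held 34125110 estimated reads and replicate 2 held 22311849, of which 32151162 and 21084234 fell on mouse genes. Spike-ins took 13.0% and 12.6% of the TPM. Genes of the labelled tissue were present, with 8 of 8 neuron markers and 7 of 8 neural progenitor markers detected. All genes of the other marker lists were detected too, so detection at 1 TPM does not set the labelled tissue apart. Sensory ganglion and neural crest markers summed to 783 TPM in replicate 1 and 618 in replicate 2, and erythroid markers to 10020 and 10254 TPM. Skeletal muscle markers summed to 53.2 TPM in replicate 1 and 141 in replicate 2. All 5 of them were called lower in replicate 1, beside 1.45% of genes tested. No other marker list held a called gene. Those lists hold 5 to 8 genes each, and with 2.24% of all genes tested called, none of so few would usually be called. The part of cells other than those of the labelled tissue in the levels given above was not tested.

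Promoter sequences from RefSeq, 300 bases around the start in mm10, were at hand for 4 of the 9 RNAs. They held 25 CpG sites for Miat, 37 for Tug1, 11 and 30 for the 2 starts of Tunar, and 10 for Malat1, beside a median of 7 over 32851 promoters. The G plus C share was 47% for Malat1 and 71.3% for Tug1, beside a median of 52.7%. TATAAA was on neither strand of any of the 5, against 13.6% of all promoters. CTTTGT, the core bound by Sox factors, was in Miat alone, against 18.7% of all promoters. These are matches of letters in this window.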

How the data were processed

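Total RNA of 2 libraries was analysed from the authors' deposited gene and transcript tables. Per the file headers, the deposited expected counts are estimated reads and need not be whole. The deposited TPM and FPKM are scaled for effective length, which was 99 bases less than the length, and the deposited isoform percent is a transcript's share of its gene's TPM. Posterior means of counts and their posterior SDs, a signal in reads, are also as deposited by the authors. Per the submitters' notes, the build was mm10 and the annotation GENCODE M4. Which aligner and quantifier were run, and how strand was handled, is not given in the sources used here. Names and coordinates came from GENCODE M21, which named 42463 genes.

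Expected counts were rounded and scaled by TMM in edgeR 4.0.16 (R 4.3.3). Genes whose mean count was at least 10 were tested between libraries by a two-sided exact binomial test, with 0.5 added to counts for ratios. The spread came from edgeR's common dispersion. DESeq2 1.42.0 size factors, spike-in scaling, no filter, posterior means, FPKM, other detection levels and single libraries were alternatives. The test was checked on simulated data with counting noise only, so the check does not cover variation between biological replicates. Intervals cover counting error only.

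The RNAs and lists were chosen with earlier results of these data known. The text names every listed RNA, the 2 highest genes and the lowest of each list of related genes, overlapping or nearest protein-coding genes at 1 TPM in both libraries, and the 10 highest long noncoding genes by biotype; 1 gene that the rule names is not reported here. Marker lists are given by counts and sums. Python 3.11.15 with pandas 2.3.3, NumPy 2.4.6, SciPy 1.17.1 and matplotlib 3.10.9 did the rest.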

Additional observations from a re-analysis of the deposited data

How the results depend on the processing

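No paired analysis was possible because there is a single group. With edgeR's exact test and the common dispersion, 180 genes were called between libraries (53 higher and 127 lower in replicate 1). With counting noise alone 390 were called, and none of the 8 RNAs was called under either. That dispersion came from the same 2 libraries, so it already holds the differences tested. DESeq2 size factors, total gene counts, spike-in counts, no filter and posterior mean counts gave 372 to 504 calls, none among the 8. With so few of all genes called, none of any 8 would usually be called under any of these settings. Spike-in scaling moved the median log2 ratio of all genes to -0.09. With it, 3 of the 8 passed an adjusted p of 0.05 at any fold (exact binomial test), beside 5623 of 17428 genes tested. All 3 were lower in replicate 1: Malat1 at -0.03, Tug1 at -0.08 and Miat at -0.08. These ratios, and those of Rmst, Pantr1 and Tunar, were positive with TMM scaling and negative here. The order of the 8 RNAs by deposited TPM held in posterior mean TPM. It could not change in FPKM, which is TPM times 1 factor per library. Nor could it change in either library alone, since both values of each higher RNA lay above those of the next. All 8 were detected at 2 TPM and in FPKM at 1, and 7 of 8 with all counts on the longest transcript. Detection of all 8 at 0.5 TPM and in either library alone follows from 1 TPM in each library. By counts in place of TPM, the share of Malat1-203 was 91.4%, of Miat-201 93.0%, of Neat1-202 51.8% and of Rmst-206 7.21%. Among the 8 RNAs, the 65 counts of Pvt1 in replicate 2 were the lowest depth behind a level, and several neighbouring or listed genes rested on fewer.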
